A study of Mus musculus with 50 samples.

Results

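DNA methylation was compared between the soleus muscles of muscle-specific Dnmt3a knockout (KO) mice taken 60 min after a bout of treadmill running and those of KO mice that had not run. The members were the samples labelled KO at 60 min (6 mice, 3 females and 3 males) and KO at rest (5 mice, 3 females and 2 males), so 11 of the 44 samples with counts in the series, for which 50 samples were labelled. A further male labelled KO at rest had no counts and could not be used. All 11 were adult C57BL/6 mice that carried floxed Dnmt3a alleles together with Cre under the muscle creatine kinase promoter. Resting mice spent the running period on a sham treadmill, and each sample is the DNA of a single soleus. That promoter drives Cre in differentiated fibres, so satellite cells, vessels, blood cells, nerve and connective tissue in the same muscle keep Dnmt3a. WT mice with and without exercise (5 at rest, 6 at 60 min) were used to compare the change with exercise between genotypes. Per the study's methods, the WT mice carried the floxed Dnmt3a alleles without Cre. KO mice at 10 min (5) and 30 min (7) are set beside the 60 min values without a test against rest, since they share the resting mice with the 60 min group. All samples at 10 and 30 min have higher sample numbers than those at rest and 60 min. These times and the order of the samples therefore cannot be told apart, and the values do not form a time course. The KO and WT mice at 10 and 30 min also served to choose clusters that differ between genotypes, and the KO mice at those times to sort features by level.

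DNMT3A is a de novo DNA methyltransferase, which adds methyl groups to cytosines of CpG dinucleotides that carry none on either strand. DNMT1 copies existing marks after replication, and TET enzymes oxidize methylcytosine on the way to its removal. In most tissues CpG islands at promoters of active genes are almost unmethylated, whereas gene bodies and intergenic sequence are largely methylated. Reduced representation bisulfite sequencing (RRBS), which reads CpGs near MspI sites, gives the methylation level at a site as the methylated calls in percent of all calls. In whole muscle a level averages over fibres and the other cells, so a different share of a cell type and a different level within a cell cannot be told apart.

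Of the 16 clusters named below, which held 3 to 35 CpGs, 5 are shown here because they span at most 100 bases and contain no untranslated sequence. Of these, 3 had a higher level at 60 min (Zfp260, Clybl and Jun) and 2 a lower one (Rassf3 and Kcnn1). The sequences are the plus strand of GRCm38 with 15 bases on either side of the cluster, read at chr7:30095286-30095345 for Zfp260, chr14:122234696-122234800 for Clybl, chr4:95052543-95052646 for Jun, chr10:121435422-121435473 for Rassf3 and chr8:70865467-70865548 for Kcnn1. Capitals mark the CpGs that were measured, and CpGs in lower case were not in the table.
Zfp260: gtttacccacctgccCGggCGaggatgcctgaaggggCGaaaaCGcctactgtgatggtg
Clybl: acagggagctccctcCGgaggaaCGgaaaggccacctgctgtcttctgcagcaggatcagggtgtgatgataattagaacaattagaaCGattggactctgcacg
Jun: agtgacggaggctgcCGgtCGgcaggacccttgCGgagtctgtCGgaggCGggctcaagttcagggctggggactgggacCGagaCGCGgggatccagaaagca
Rassf3: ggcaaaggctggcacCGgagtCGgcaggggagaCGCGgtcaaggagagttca
Kcnn1: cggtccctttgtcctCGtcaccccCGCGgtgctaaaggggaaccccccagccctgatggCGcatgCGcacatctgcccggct
The GC content of these windows was 61.7% for Zfp260, 52.4% for Clybl, 67.3% for Jun, 65.4% for Rassf3 and 68.3% for Kcnn1. The Zfp260, Jun and Kcnn1 clusters lay in CpG islands, the Rassf3 cluster in the shore of one and the Clybl cluster in open sea, the sequence away from islands.

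The 11 samples held about 12819400 to 33288000 calls each over 205304 CpGs, with a median coverage per CpG of 48 to 117. The coverage did not separate the groups, with 56 to 114 at rest and 48 to 117 at 60 min. Knockout of Dnmt3a could not be checked in these data, since the methylation of CpGs in and near Dnmt3a does not measure the deletion. At 60 min, samples 6 and 23, both female, stood apart from the others with the lowest levels over all calls (21.4% and 21.7%) and over CpGs (23.3% and 23.6%), so library-wide results, and named genes whose difference moved by over 1.5 times without them, are given with and without them. They also had the lowest share of calls, 4.15% and 4.21%, at a pair of deeply covered CpGs (chr2:98662794 in Gm10801 and chr2:98666503 in Gm10800) that took up to 10.8% of calls in the other samples. The part of these shares in the lower levels was not tested beyond the values without those CpGs given next.

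The mean level over CpGs, with each CpG weighted equally, was 25.0%, 24.5%, 24.1%, 25.4% and 25.6% in the resting KO mice. At 60 min it ranged from 23.3% to 25.1% with a median of 24.5%. The groups overlapped, and the means of 24.9% ± 0.634 (SD, n = 5) and 24.3% ± 0.687 (SD, n = 6) differed by -0.588 points (two-sided exact permutation test over all divisions of the samples, p = 0.173; 0.27 when permuted within sex). Pooled over all calls, the level was 30.2%, 29.6%, 25.3%, 37.5% and 33.6% at rest. At 60 min it ranged from 21.4% to 34.4% with a median of 27.9%. The groups again overlapped, and the means of 31.2% ± 4.56 (SD, n = 5) and 27.2% ± 5.00 (SD, n = 6) differed by -4.02 points (exact permutation test, p = 0.197). Without samples 6 and 23 the differences were -0.174 points over CpGs and -1.17 points over calls, and without the pair of deeply covered CpGs the pooled difference was -3.37 points (exact permutation test, p = 0.188). In WT muscle the level over CpGs differed by -0.100 points between the same time points (exact permutation test, p = 0.827), and the pooled level by -1.16 points (p = 0.706, exact permutation test). The change in KO was not shown to differ from that in WT (permutation test of the difference of changes, p = 0.427 over CpGs and 0.492 over calls).

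**Figure D1:**
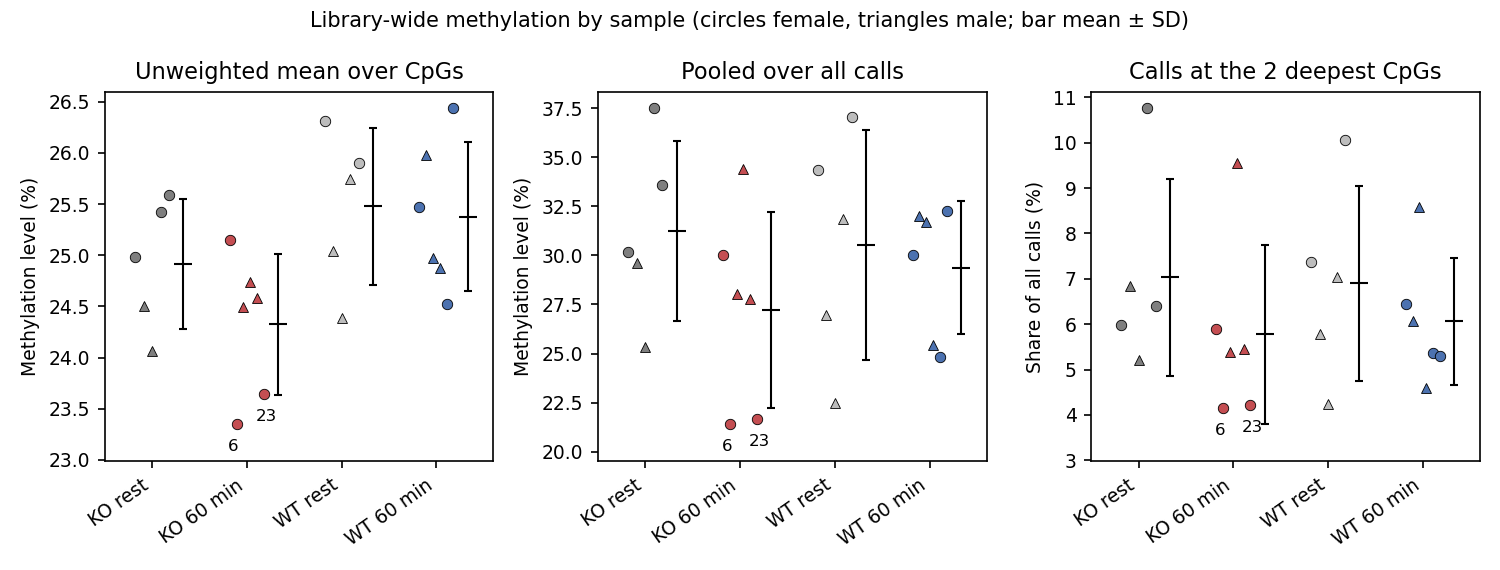
Methylation level of each sample in percent, over CpGs and pooled over calls, and the share of calls at the pair of deepest CpGs in percent, for KO and WT mice at rest and 60 min after exercise (circles are females, triangles males, bars the mean ± SD). The KO groups overlap in each panel, and samples 6 and 23 have the lowest KO values in each, 23.3% and 23.6% over CpGs.

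The lower mean at 60 min was seen in the female and not in the male KO mice. In females the level over CpGs was 25.3% at rest and 24.0% at 60 min, and in males 24.3% and 24.6%. Pooled over calls it was 33.8% and 24.4% in females and 27.5% and 30.1% in males. The change in females minus that in males was -1.61 points over CpGs (exact permutation test of time within each sex, 200 divisions, p = 0.04) and -12.0 points over calls (exact permutation test, p = 0.055). This test was added after the levels had been seen, and with 9 measures in the family every Benjamini-Hochberg adjusted p was 0.055. Samples 6 and 23 make up most of the female group at 60 min, so the sex of the mice and these samples cannot be told apart with 3 females in that group. In WT mice the pooled level was 35.7% and 29.0% in females, and 27.1% and 29.7% in males (exact permutation test of the difference of changes, p = 0.09).

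No genomic context changed significantly with exercise, and the mean was lower at 60 min in each of the 7 contexts. Levels here are means with each CpG weighted equally. In promoters, where this level was lowest, it was 3.28% at rest and 3.14% at 60 min, a difference of -0.142 points. In CpG islands it was 11.6% and 11.3%, a difference of -0.269 points. In exons it was 33.1% and 32.4%, and in introns 41.6% and 40.5%. The differences were larger in points where the levels were higher: -1.30 in island shores, from 46.5%, -1.09 in intergenic sequence, from 53.0%, and -1.31 in open sea, from 61.5%. The exact permutation p-values were 0.0909 for promoters and 0.177 to 0.208 for the other contexts, all 0.208 after adjustment over the 7. Without samples 6 and 23 the differences were -0.0741 points in promoters, -0.0831 in CpG islands, -0.205 in exons, -0.266 in introns, -0.402 in shores, -0.290 in intergenic sequence and -0.354 in open sea. Pooled over calls, promoters were not the lowest context. The pooled level was 17.9% and 14.6% in promoters and 13.1% and 11.4% in CpG islands.

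**Figure D2:**
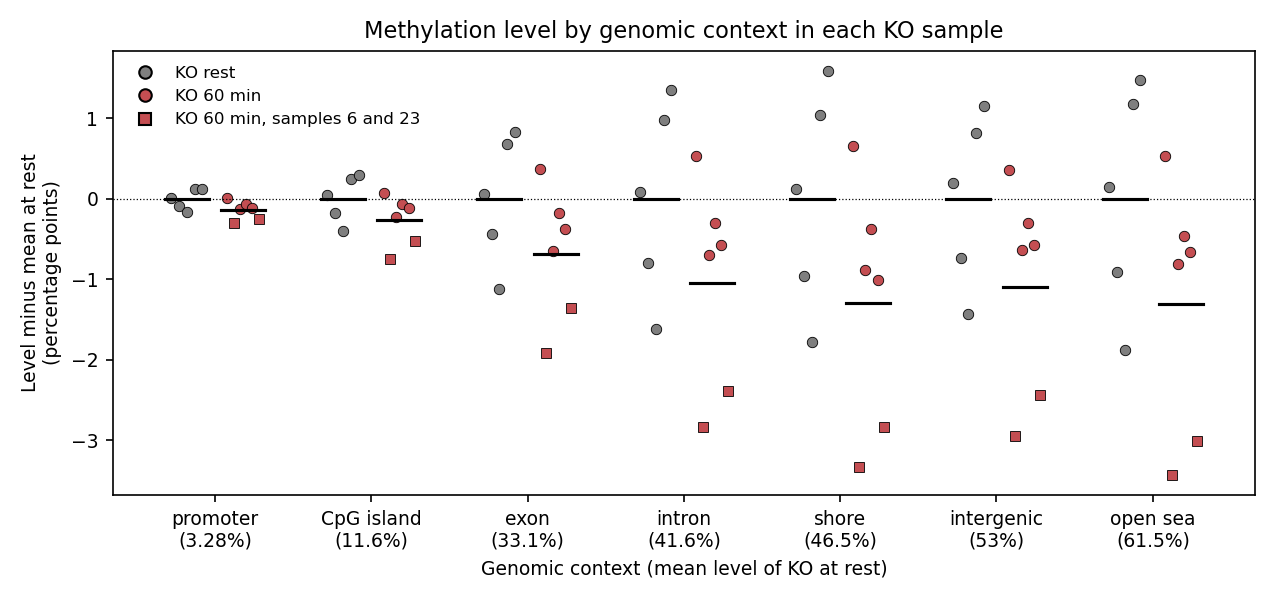
Methylation level of each KO sample minus the mean of the resting samples, in percentage points, by genomic context, with the resting mean under each context (points are mice, squares samples 6 and 23 at 60 min, bars the means). The groups overlap in all 7 contexts, and samples 6 and 23 lie at the bottom of the 60 min group in each.

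The tests over features compared methylated and unmethylated counts with edgeR's quasi-likelihood F test over all 44 samples, adjusted by Benjamini-Hochberg over all features of a kind. At an adjusted p under 0.05, 0 of 51038 clusters of neighbouring CpGs, 0 of 9761 promoters, 0 of 12391 gene bodies and 0 of 205304 single CpGs differed between 60 min and rest in KO muscle (0.0% of each). At an unadjusted p under 0.05, edgeR's quasi-likelihood test gave 1532 clusters (3.0%), 345 promoters (3.53%), 542 gene bodies (4.37%) and 6094 CpGs (2.97%). The same test in WT muscle called 0 features of any kind and gave 1871 clusters, 393 promoters, 488 gene bodies and 6826 CpGs at an unadjusted p under 0.05. If no feature differed, about 2552 clusters, 488 promoters, 620 gene bodies and 10265 CpGs would be expected at that threshold. Each of these counts, in KO and in WT, was below that number. Other tests called 0 or 1: the edgeR likelihood ratio test called 0 clusters, 0 promoters and 1 gene body, Scnn1b, limma on log2 ratios called 0 clusters and 0 CpGs, and limma on levels in percent called 0 clusters and 1 CpG. The absence of calls is not evidence that no level differed, since the median width of the 95% interval of a cluster's difference (limma on percent) was 23.6 points. In clusters under 5%, 94.6% of intervals lay within ±10 points, but only 1.92% did so at 20 to 50%. For promoters 84.5% of intervals lay within ±10 points and for gene bodies 56.8%.

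Among the features at an unadjusted p under 0.05, more were lower than higher at 60 min, and this excess was smaller or absent without samples 6 and 23. Of the clusters, 582 were higher (1.14% of all) and 950 lower (1.86%), of the promoters 162 (1.66%) and 183 (1.87%), and of the gene bodies 160 (1.29%) and 382 (3.08%). Without both samples the numbers were 581 and 653 clusters, 181 and 158 promoters, and 177 and 198 gene bodies. With each sample centred on its own mean log2 ratio, limma gave 1100 and 1119 clusters, 215 and 211 promoters, and 250 and 295 gene bodies. Centring takes out any shift that a whole library shares, so it brings the numbers of higher and lower features closer by design. Samples 6 and 23 were chosen for their low levels, so neither set of counts is a test of the excess. Over all clusters, whether or not they passed a threshold, the median difference was -0.269 points, and 55.4% had a lower mean at 60 min. Without samples 6 and 23 these values were -0.0807 points and 51.6%, and in WT mice -0.0345 points and 50.7%. Gene bodies were lower at 60 min in 61.9%, with a median of -0.400 points, against 54.5% and -0.141 points without both samples and 52.4% and -0.0657 points in WT. Clusters that were partly methylated, at 20 to 50% in the KO mice at 10 and 30 min, had the largest shift, with a median of -2.51 points (-0.942 without both samples; -0.656 in WT), clusters over 80% a median of -0.366 points and clusters under 5% a median of 0. Of the CpGs, 2615 were higher (1.27%) and 3479 lower (1.69%). Means differed by more than 5 points in either direction in 34.9% of clusters, 7.73% of promoters and 20.3% of gene bodies, most of them without passing any threshold. Groups did not overlap in 208 clusters (0.408%), 42 promoters (0.43%) and 52 gene bodies (0.42%).

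**Figure D3:**
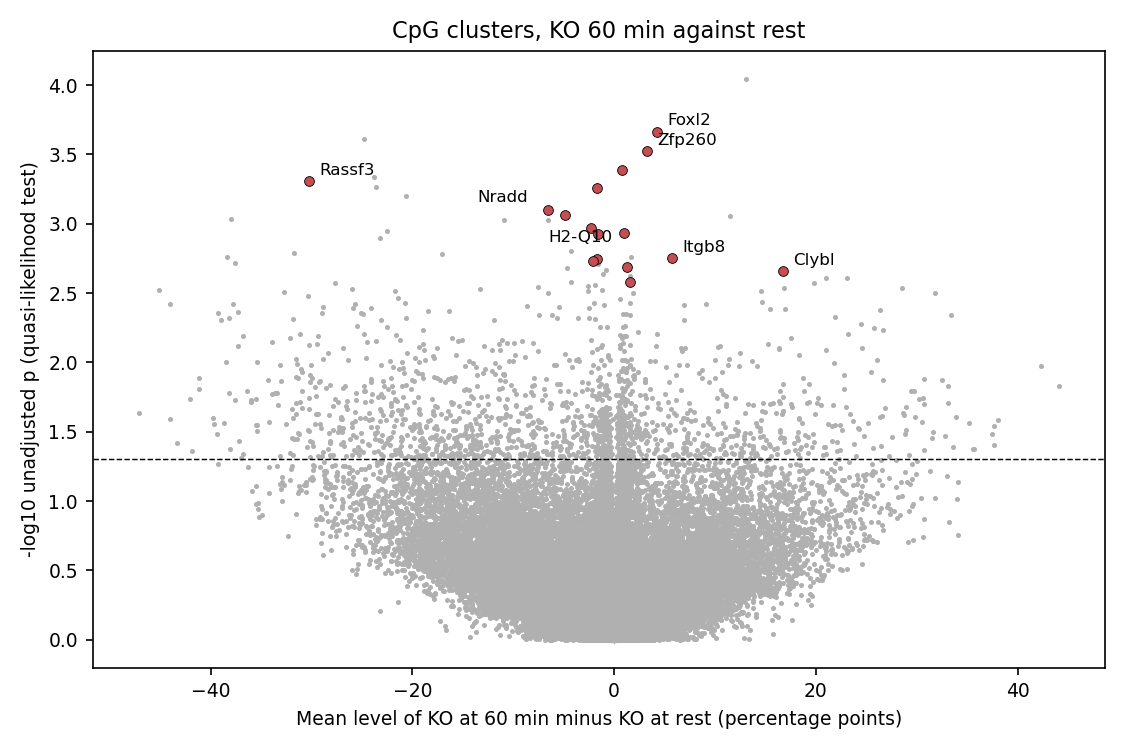
Mean methylation level at 60 min minus rest in KO muscle, in percentage points, against the -log10 of the unadjusted edgeR quasi-likelihood p, for 51038 CpG clusters (points are clusters, red points the 16 named ones, the dashed line the unadjusted threshold). Clusters of low p lie on both sides of 0, with 582 higher and 950 lower above the line, and most named ones lie within a few points of 0, apart from Rassf3 at -30.2 and Clybl at 16.7 points.

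By the rule for named genes, 8 clusters of at least 3 CpGs with the lowest p in each direction were described. Since they were selected by p, their values are a description, and every edgeR adjusted p was 1. In 14 of the 16 the mean level was under 10% in both groups, and 14 lay in CpG islands. In 8 of them the resting and 60 min samples did not overlap, beside 208 of all 51038 clusters (0.408%). Selection by low p favours clusters without overlap, so this number is part of the description too.

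Of the higher clusters, that at Clybl, which encodes a mitochondrial citramalyl-CoA lyase, was the one that was mostly methylated. Its 3 CpGs in an intron (chr14:122234711-122234784) were methylated to 83.2%, 65.4%, 57.6%, 72.5% and 79.95% at rest and to 84.3% to 95.4% at 60 min, with a median of 86.7%. All 60 min samples lay above all resting ones. The means were 71.7% ± 10.5 and 88.4% ± 4.16, a difference of 16.7 points with a 95% interval of 7.88 to 25.5 (limma on percent; edgeR unadjusted p = 0.0022). In WT mice the means were 79.2% and 84.7% (edgeR unadjusted p = 0.11 for the difference of changes), and in KO 73.0% at 10 min and 79.7% at 30 min.

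Other higher clusters were almost unmethylated at rest. At Foxl2, a forkhead transcription factor of the ovary and eyelid, 7 CpGs in the transcript's untranslated region (chr9:98957912-98958317) had levels of 1.57%, 0.257%, 1.16%, 1.49% and 1.22% at rest and 2.27% to 9.51% at 60 min (median 5.07%). The groups did not overlap, and the means of 1.14% ± 0.523 and 5.35% ± 2.48 had an unadjusted edgeR p of 0.000216. In WT mice the level was 7.09% at rest and 4.92% at 60 min (edgeR unadjusted p = 0.000543 for the difference of changes). At Zfp260, a zinc finger transcription factor, the 4 CpGs shown above (chr7:30095301-30095329) had no methylated call in any resting sample and 0.16% to 9.19% at 60 min (median 1.95%), so that the mean was 3.27% ± 3.49 (edgeR unadjusted p = 0.000299), and 2.09% without sample 23. In WT mice Zfp260 was at 0.692% at rest (0.0333% without the highest library) and 1.64% at 60 min, so the mean was higher at 60 min in both genotypes. The same CpGs were also the only ones measured in the promoter and the body of Zfp260. At Hes6, a basic helix-loop-helix factor that promotes differentiation of muscle and nerve precursors, 11 CpGs of coding sequence (chr1:91412760-91412975) had no methylated call at rest and 0.331% to 2.23% at 60 min (median 0.842%). The mean of 0.992% ± 0.73 at 60 min (edgeR unadjusted p = 0.00117) lay beside WT means of 1.01% at rest and 0.0621% at 60 min. That resting WT mean came mostly from 1 library at 4.72%, and was 0.078% without it. At Itgb8, an integrin subunit that helps to activate TGF-beta, the mean of 6 CpGs (chr12:119237817-119237890) was 2.24% ± 0.858 at rest, with 1.30% to 3.16%, and 7.94% ± 3.70 at 60 min, with 4.33% to 14.9% (edgeR unadjusted p = 0.00177). The groups did not overlap there, and the WT means were 15.3% and 7.12% (edgeR unadjusted p = 0.00028 for the difference of changes). The cluster shared by Csnk2b, the regulatory subunit of casein kinase 2, and Gpank1 (35 CpGs) went from 0.195% to 0.975%, with overlap, and St5 (12 CpGs) from 0.0391% to 1.33% without overlap, a difference of 1.29 points that was 0.832 without sample 19.

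Jun, the AP-1 subunit and immediate early gene of muscle contraction, was the only one of the immediate early genes among these clusters. The 8 CpGs shown above (chr4:95052558-95052630), which the table assigns to the Jun promoter and which lie within the antisense transcript Junos, had 0%, 0%, 0.141%, 0% and 0% at rest. At 60 min the level ranged from 0% to 4.78%, with a median of 0.84% and a mean of 1.56% ± 1.93 (edgeR unadjusted p = 0.00262). The groups overlapped at 0, and without sample 19 the difference in means was 0.893 points in place of 1.54. Over all 15 CpGs of the promoter the means were 0.101% and 0.893% (edgeR unadjusted p = 0.0211). In WT mice the cluster was at 0.466% at rest (0.151% without the highest library) and 0.0354% at 60 min, and in KO mice at 0% at 10 min and 0.175% at 30 min.

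Of the lower clusters, the one in an intron of Rassf3, a member of the Ras association domain family, had the largest difference. The 4 CpGs shown above (chr10:121435437-121435457) were methylated to 39.7%, 44.9%, 86.7%, 58.3% and 61.1% at rest and to 18.6% to 33.2% at 60 min, with a median of 29.1%. The groups did not overlap. The means of 58.1% ± 18.3 and 27.9% ± 5.51 differed by -30.2 points, with a 95% interval of -44.8 to -15.7 (limma on percent; edgeR unadjusted p = 0.000494). In WT mice the means were 44.2% and 44.5% (edgeR unadjusted p = 0.00946 for the difference of changes), and in KO mice 33.2% at 10 min and 43.2% at 30 min.

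At Nradd, which encodes a death domain protein related to the neurotrophin receptor, 6 CpGs in a region shared with Nbeal2 (chr9:110624293-110625042) had 1.80%, 4.99%, 11.5%, 8.55% and 8.33% at rest and 0% to 2.04% at 60 min (median 0.24%). The groups overlapped between the lowest resting and the highest 60 min sample, and the means were 7.03% ± 3.72 and 0.491% ± 0.779 (edgeR unadjusted p = 0.0008). In WT mice they were 3.01% (1.68% without the highest library) and 6.47%. H2-Q10, a class Ib major histocompatibility gene, had 15 CpGs, mostly in coding sequence, at 7.43% ± 2.66 at rest and 2.52% ± 0.909 at 60 min (edgeR unadjusted p = 0.000864). Cactin, which encodes a nuclear splicing factor, had 16 CpGs at 3.04% and 0.711%, and WT levels of 3.23% and 3.22%. At Timmdc1, an assembly factor of respiratory complex I, 9 CpGs (chr16:38522459-38522743) were at 1.65% to 2.37% at rest and 0% to 1.26% at 60 min without overlap, with KO levels of 0.308% at 10 min and 0.289% at 30 min. In WT mice Timmdc1 was at 1.71% at rest and 0.411% at 60 min (0.154% without the highest library), so the mean was lower at 60 min in both genotypes there (edgeR unadjusted p = 0.419 for the difference of changes). Adgrb3, an adhesion receptor of brain that also takes part in myoblast fusion, was at 1.74% and 0.0329%, Ywhaq, a 14-3-3 protein, at 1.64% and 0.0325%, and Kcnn1, a calcium-activated potassium channel, at 2.09% and 0.0262%. The KO groups overlapped at each of them. In WT mice Adgrb3 was at 2.16% and 2.38%, Ywhaq at 0.0382% and 0%, and Kcnn1 at 0.0930% and 0.709%. In KO mice at 10 and 30 min Adgrb3 was at 2.90% and 3.72%, Ywhaq at 0.675% and 0.590%, and Kcnn1 at 0.161% and 0.200%.

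**Figure D4:**
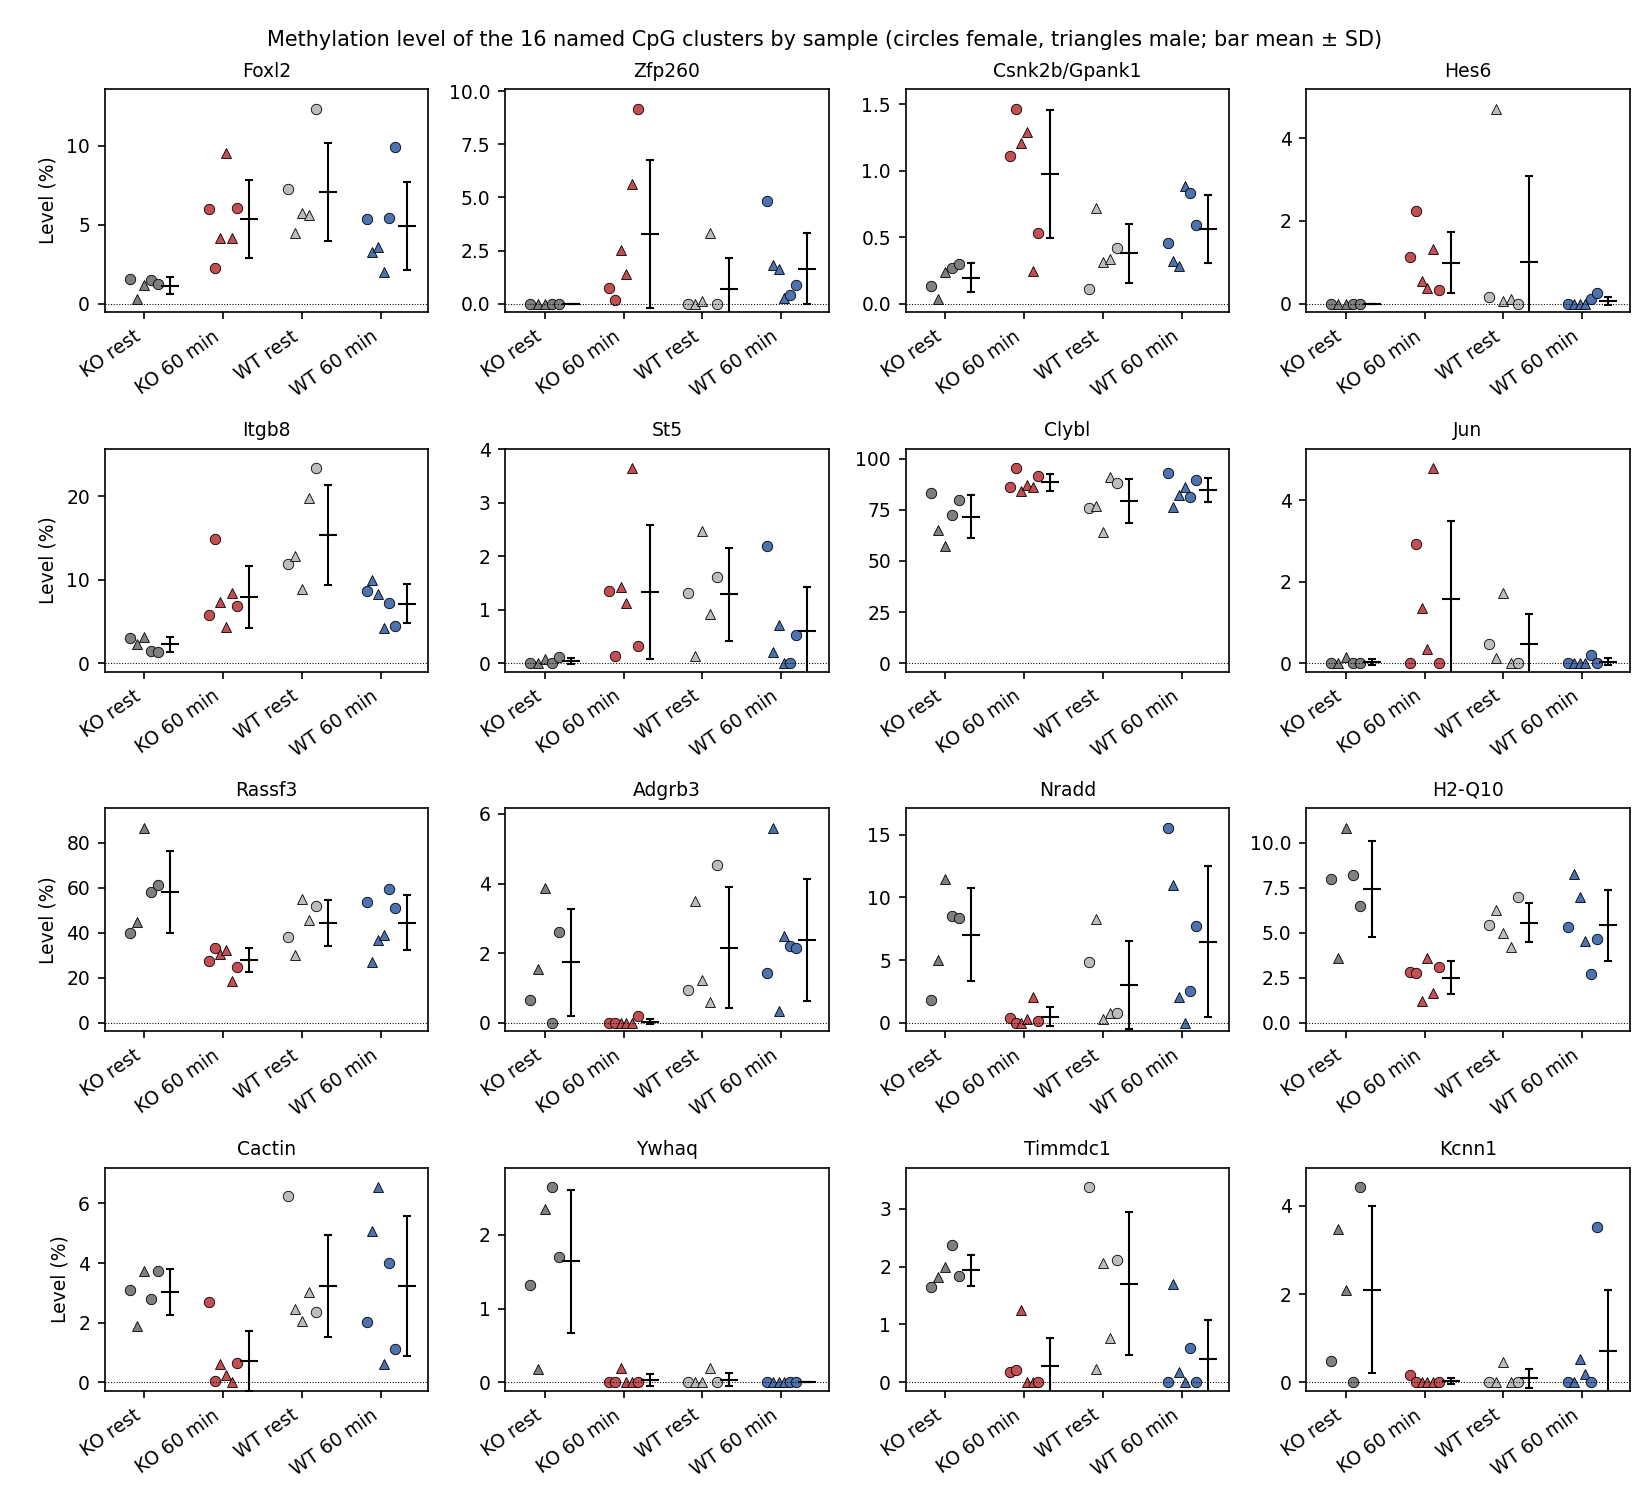
Methylation level in percent of each KO and WT sample at rest and 60 min for the 16 named clusters (circles are females, triangles males, bars the mean ± SD; each panel has its own axis). Clybl and Rassf3 are the clusters with KO means over 10%, and 8 of the 16 have no overlap between the KO groups.

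Promoters and gene bodies shared many of these CpGs: 7 of the 10 named promoters and 3 of the 10 named bodies were the same CpGs as a named cluster. The other 3 promoters were higher at 60 min and under 1% in both groups. Ptpru, a receptor tyrosine phosphatase, was at 0.0543% and 0.933% (edgeR unadjusted p = 0.00116), Kcna6, a potassium channel subunit, at 0.0137% and 0.918% (edgeR unadjusted p = 0.00126), and Fam20c, the Golgi casein kinase, at 0% and 0.664% (edgeR unadjusted p = 0.00147).

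Gene bodies with the lowest p had larger differences. Scnn1b, the beta subunit of the epithelial sodium channel, had 2 CpGs (chr7:121889329-121889345) at 82.9%, 91.7%, 92.3%, 81.5% and 83.1% at rest and at 96.1% to 100% at 60 min, with a median of 100%. The groups did not overlap, and the means were 86.3% ± 5.26 and 99.3% ± 1.59 (edgeR quasi-likelihood adjusted p = 0.710; likelihood ratio test adjusted p = 0.00993). In WT mice they were 92.0% and 93.6%. Rps7, a ribosomal protein gene, was at 0% and 0.711% (0.457% without sample 17). Of the lower bodies, Ltbp4, which binds latent TGF-beta in the matrix of muscle, had the smallest SD at rest. Its 21 CpGs were methylated to 13.6%, 14.5%, 11.7%, 11.9% and 14.1% at rest and to 4.06% to 8.65% at 60 min, with means of 13.2% ± 1.28 and 6.20% ± 1.51 (edgeR unadjusted p = 0.000461). The groups did not overlap, and WT levels were 10.0% and 11.3% (edgeR unadjusted p = 0.00328 for the difference of changes). Grem1, a secreted BMP antagonist, had 11 CpGs at 27.9%, 16.9%, 21.5%, 18.7% and 37.9% at rest and 3.36% to 13.7% at 60 min, with means of 24.6% ± 8.53 and 7.70% ± 4.18 (edgeR unadjusted p = 0.000794). Sec24b, a coat protein of vesicles that leave the endoplasmic reticulum, was at 18.6% ± 8.48 and 6.04% ± 3.45, and Dvl2, a transducer of Wnt signals, at 8.64% and 2.59%. Tsn, which encodes the RNA-binding protein translin, had no methylated call at 60 min and 4.26% at rest, from 2 CpGs. In WT mice Tsn was at 2.92% at rest and 0.722% at 60 min, so the mean was lower at 60 min in both genotypes.

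Gene lists were described by their counts beside those of all promoters, of which 162 of 9761 were higher and 183 lower at an unadjusted edgeR p under 0.05, with a median difference of -0.0465 points. Of the immediate early and exercise-responsive transcription factors, 25 of 31 promoters were measured, and 1 was higher (Jun) and 0 lower, with a median of -0.0335 points and a range of -1.97 to 0.926 points. Of the exercise-induced metabolic regulators, 20 of 26 were measured and 0 passed, with a median of -0.0220 points. Of the mitochondrial energy and fatty acid oxidation genes, 27 of 37 were measured and 0 passed, with a median of -0.00455 points. Of the insulin, AMPK and glycogen genes, 27 of 35 were measured, and 1 was lower: Gys1, muscle glycogen synthase, had a level of 0.455% at rest and no methylated call at 60 min (edgeR unadjusted p = 0.0217). Of the antioxidant genes 18 of 26 were measured and 0 passed.

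Of the glucocorticoid and clock genes, 23 of 30 promoters were measured and 2 were higher. Cry1, the clock repressor, had 26 promoter CpGs at 0.171%, 0.168%, 0.0608%, 0.0652% and 0.0745% at rest and at 0.437% to 1.77% at 60 min, so that the groups did not overlap (edgeR unadjusted p = 0.00427). In WT mice Cry1 was at 0.81% and 0.469%. Nfil3, which represses genes of the clock's output, was at 0.131% and 0.631% (edgeR unadjusted p = 0.0276), and the difference in means was 0.307 points without sample 19. The median of the list was -0.0743 points.

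Of the DNA methylation writers, readers and erasers, 11 of 21 promoters were measured, with 1 higher and 1 lower. At the Dnmt3a promoter 6 CpGs (chr12:3806533-3806597) had no methylated call at rest and 0% to 7.30% at 60 min, with a median of 0.155% (edgeR unadjusted p = 0.0214), and the mean of 2.17% ± 3.30 was 1.15% without sample 3. The Gadd45g promoter, whose product takes part in stress responses and DNA repair, had a much higher level. Its 8 CpGs were methylated to 28.4%, 15.4%, 21.5%, 18.7% and 34.4% at rest and to 2.14% to 12.8% at 60 min, with a median of 9.62%. No samples overlapped, and the means were 23.7% ± 7.68 and 8.95% ± 3.98 (edgeR unadjusted p = 0.0263). In WT mice the promoter was at 7.91% and 12.2% (edgeR unadjusted p = 0.0555 for the difference of changes), and in KO at 17.3% at 10 min and 17.4% at 30 min. In the gene bodies of the list, Gadd45b was at 0.081% and 1.72%, and the single CpG of Tdg, the thymine DNA glycosylase, at 92.7% and 76.8%. Both were named after their values were seen, as were the body values below that come from an unadjusted edgeR p under 0.05.

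Of the contractile and calcium-handling genes of muscle, 15 of 39 promoters were measured and 0 passed, with a median of -0.604 points. In their bodies, 27 were measured, 1 was higher and 2 lower, beside 1.29% higher and 3.08% lower over all bodies. Their median was -2.77 points against -0.400 over all bodies, but their median resting level was also higher, 30.4% against 12.9%, and all bodies with a level of 20 to 50% at 10 and 30 min had a median of -3.30 points (-0.947 without samples 6 and 23). Mybpc2, fast myosin binding protein C, was at 16.6% and 8.02%, Myh2, myosin heavy chain 2A, at 66.1% and 55.0%, and Myl4, the embryonic light chain, at 0.0506% and 1.16%, a difference of 1.11 points that was 0.629 without samples 6 and 23. The bodies of other fibre genes had levels at rest and 60 min of 29.0% and 30.4% (Ckm, muscle creatine kinase; 26.9% at 60 min without samples 6 and 23), 78.6% and 74.5% (Ttn, titin) and 10.0% and 8.43% (Tnnt1, slow troponin T). Of the myogenic factors, 15 of 21 promoters were measured, and 1 was lower (Cux1, 1.40% and 0.196%, edgeR unadjusted p = 0.0487), with a difference of -1.21 points that was -0.572 without sample 21.

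Lineage genes of the other cell types in soleus were poorly covered, with 4 of 12 promoters of endothelial, 2 of 12 of blood and immune, 2 of 12 of fibroblast and adipocyte and 6 of 10 of nerve genes, and 0 of them passed at an unadjusted edgeR p under 0.05. In the bodies of these genes, 9 endothelial, 6 blood, 5 fibroblast and 7 nerve genes were measured. Of the endothelial bodies 0 were higher and 1 lower at an unadjusted edgeR p under 0.05, with a median of 0.373 points and a range of -8.39 to 9.08 points. The lowest was Esam and the highest Tie1, an endothelial receptor kinase at 55.7% and 64.8% (60.7% without samples 6 and 23). Of the blood bodies 0 were higher and 1 lower, with a median of -3.25 points. Of the nerve bodies 1 was higher and 1 lower, with a median of -3.76 points. Of the fibroblast bodies 0 passed, with a median of 0.884 points. Over all bodies 1.29% were higher and 3.08% lower, with a median of -0.400 points. The median resting level was 74.8% for the blood and 20.0% for the nerve bodies, against 12.9% over all bodies. All bodies at 50 to 80% had a median of -2.36 points, those at 20 to 50% -3.30 and those at 5 to 20% -1.77. A shift particular to blood or nerve genes was not tested. Esam, an endothelial adhesion molecule, was at 18.2% ± 5.71 and 9.79% ± 3.30 (edgeR unadjusted p = 0.00407) and Adgre1, the macrophage marker F4/80, at 81.3% ± 6.57 and 62.3% ± 14.1 (edgeR unadjusted p = 0.00986). The body of Pecam1, another endothelial adhesion molecule, was at 59.7% and 59.4%. Of the nerve genes, Snap25 was at 0% and 2.60% (1.16% without sample 19) and Rbfox3 at 38.8% and 33.1% (35.6% without samples 6 and 23). Of the imprinted genes 13 of 28 promoters were measured, and 1 was higher (Zim1, at 0% and 0.886%, or 0.263% without sample 10).

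**Figure D5:**
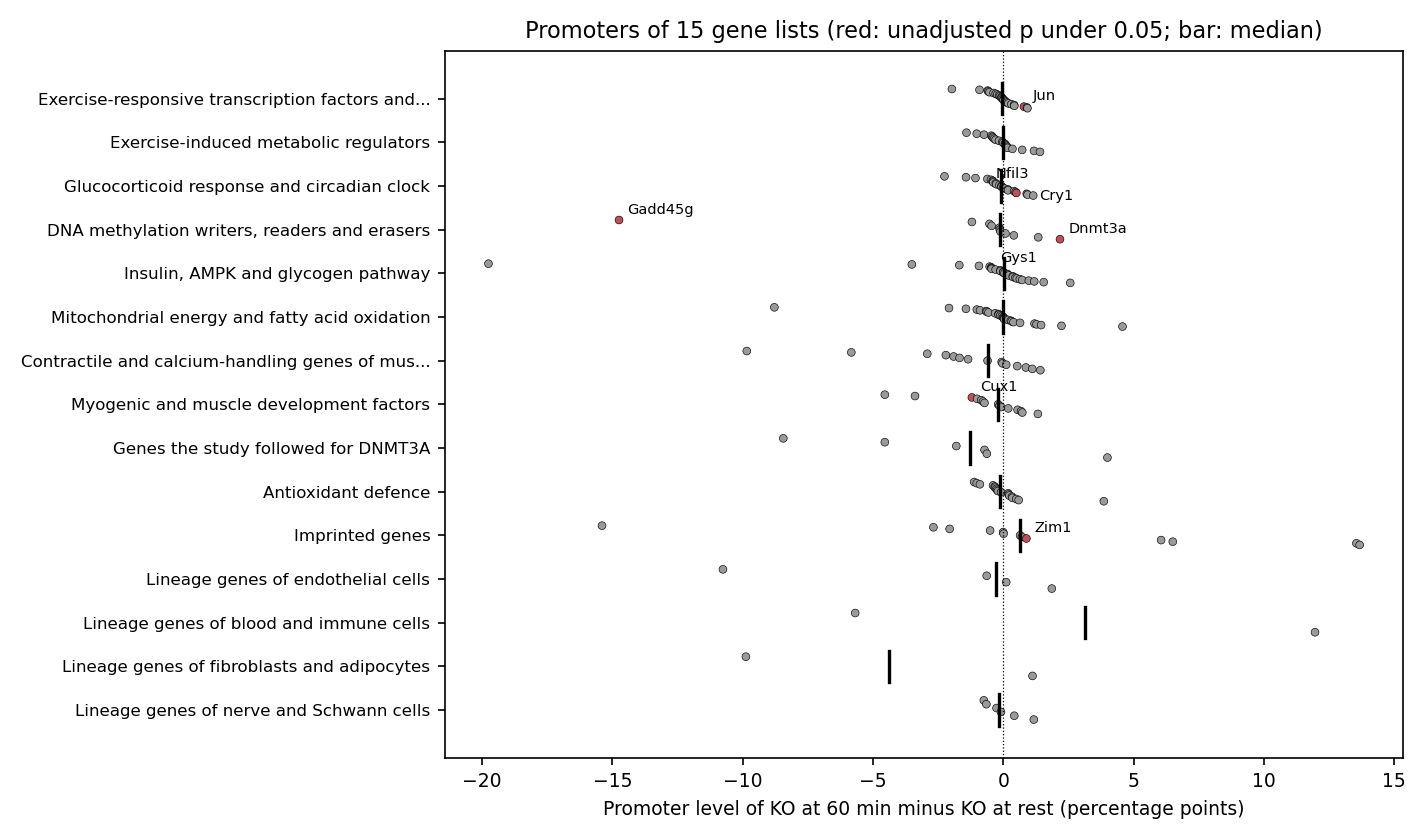
Mean level at 60 min minus rest in KO muscle, in percentage points, for the measured promoters of each gene list (points are genes, red where the unadjusted p is under 0.05, bars are medians). The medians of the exercise lists lie near 0, from -0.0743 to -0.0220 points. Single points lie far from 0 on either side, from -19.8 points in the insulin, AMPK and glycogen list to 13.7 among the imprinted genes, with Gadd45g at -14.7.

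Of 32 genes followed for exercise or DNMT3A, 20 promoters were measured, and only Jun and Dnmt3a had an unadjusted edgeR p under 0.05. Of these promoters, 15 had a resting level under 3%, and for 12 the 95% interval of the difference lay within ±3 points (limma on percent). The interval for Mef2a, a transcription factor of metabolic genes, was -0.767 to 0.688 points, and for Fos, an immediate early gene, -0.639 to 0.572. The promoter of Tfam, the mitochondrial transcription factor, was at 0.460% at rest and had no methylated call at 60 min (edgeR unadjusted p = 0.0686). Its difference of -0.460 points was -0.278 without resting sample 24 and -0.298 without resting sample 2. The differences were -0.348 points for Hk2, hexokinase 2, 0.151 for Cs, citrate synthase, 0.414 for Nr4a1 and -0.163 for Nr4a3, 2 nuclear receptors induced by contraction, and 0.0522 for Per1. Each of these moved by over 1.5 times when a single sample was left out, and without samples 6 and 23 Hk2 was at -0.156, Cs at -0.159 and Per1 at 0.215 points. The genes that the study followed for DNMT3A had wider intervals: Aldh1l1, a folate enzyme, was at 57.5% and 49.0%. Samples 6 and 23 were at 41.6% and 27.4% there and the other 60 min samples at 55.7% to 57.5%, so that without both the mean at 60 min was 56.3% and the difference -1.19 points in place of -8.44. Pax7, the satellite cell factor, was at 12.2% and 7.69%, a difference of -4.55 points that was -2.93 without resting sample 24. Eef1a1, a translation elongation factor, had 1 promoter CpG, with as few as 30 calls in a sample. It was at 6.51% and 10.5%, and its difference of 4.00 points ranged from 2.37 to 6.32 with single samples left out (resting samples 8, 21 and 24 and 60 min sample 19 each moved it by over 1.5 times). Agtrap was at 5.81% and 5.18% (0.348 points without sample 6), with WT levels of 16.2% and 3.85%. Sim2 was at 2.92% and 2.20% (0.0717 points without resting sample 21). The promoter of 1600002K03Rik was at 2.86% and 1.05% (-0.550 points without resting sample 24). In their bodies, 26 of the 32 genes were measured and 0 had an unadjusted p under 0.05 by edgeR. The body of Dnmt1 was at 33.8% and 23.8% (edgeR unadjusted p = 0.0749). Samples 6 and 23 were at 16.5% and 16.2% there, the difference of -10.1 points was -6.33 without both and -5.33 without resting sample 21, and it was -16.9 points in females and 0.33 in males. The body of Tet2 was at 22.2% and 17.2%, a difference of -4.99 points that was 0.188 without resting sample 12. Ppargc1a and Pdk4 were not measured as promoters.

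Clusters that are less methylated in KO than in WT were looked at separately, chosen by the levels of samples outside this comparison. The spread in that choice was estimated over all samples with counts, so it was not fully independent of the compared mice. In the mice at 10 and 30 min, 77 clusters differed between KO and WT at an adjusted p under 0.05 in edgeR's quasi-likelihood test, all lower in KO. Between rest and 60 min their median difference in KO was -0.358 points, beside -0.269 points over all clusters. These medians are at unlike levels, since the median resting KO level of all clusters was 50.8%. All clusters under 5% at 10 and 30 min had a median difference of 0, and those at 5 to 20% one of -1.07 points. At an unadjusted edgeR p under 0.05, 2 of the 77 were higher (Carhsp1 and Exoc3l2) and 3 lower (Cap2, Mga and a region without a gene), beside 1.14% higher and 1.86% lower over all clusters. The median KO level of the 77 was 3.05% at rest and 2.64% at 60 min, and their WT medians were 13.0% and 11.0%. KO lay below WT in 73 of the 77 at rest and in 75 at 60 min. The KO level at Cap2, a regulator of actin filaments, was 65.4% and 44.3% (edgeR unadjusted p = 0.0236). The Aldh1l1 cluster among the 77 lay in the gene body, apart from the promoter described above. It was at 8.70% and 4.37% in KO and at 19.2% and 15.5% in WT.

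The change with exercise in KO was compared with that in WT in the same model. The interaction test of edgeR called 0 of 51038 clusters, with 1716 at an unadjusted p under 0.05, and the lowest adjusted p was 0.0648. If no cluster differed, about 2552 would be expected at an unadjusted p under 0.05. The likelihood ratio test called 2 clusters, and limma on log2 ratios and on percent 1 each. Of these, a CpG in no gene (chr16:53512669) was methylated to 96.3%, 93.9%, 97.6%, 90.4% and 90.7% in the resting KO mice and to 41.7% to 85.7% at 60 min, without overlap. The WT mice went the other way there, from 61.9% ± 26.4 to 98.6% ± 1.67. A CpG in Wipf1 (chr2:73473745), which encodes an actin regulator, was at 96.2% and 80.1% in KO and 42.0% and 89.8% in WT. Another CpG (chr4:109657775, in an exon of 9630013D21Rik) was called for KO alone by limma on percent: it was at 17.1%, 16.7%, 1.41%, 7.27% and 14.8% at rest and had no methylated call in any 60 min sample, against WT levels of 0.118% and 0.183%. These features were named after the results of the other tests had been seen. Across clusters, the change in KO and that in WT had a Pearson r of 0.0107 over 51038 clusters, which share libraries within each genotype but no samples between them.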

How the data were processed

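RRBS was performed on DNA of single soleus muscles. Per the labels and the study's methods, the authors trimmed reads with Trim Galore 0.4.0 and cutadapt 1.9.1 and aligned them to mm10 (GRCm38) with Bismark 0.18.1. What the authors deposited are raw counts, per CpG and sample, of calls read as methylated or unmethylated, for CpGs with at least 8 calls in every sample, and the cluster, promoter and gene body of each CpG were used as deposited. Reads carried no molecular identifiers, so intervals and tests treat PCR copies as separate calls.

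Groups were taken from the labels, and each replicate is a mouse. Levels per feature are methylated calls over all calls, in percent. Library-wide levels were compared with two-sided exact permutation tests. Features were tested with edgeR 4.0.16 (quasi-likelihood F test, a coefficient per sample and a methylation coefficient per group, common dispersion, 44 samples), with limma 3.58.1 on log2 ratios (pseudocount 1) or percent as alternatives, in R 4.3.3. Leave-one-out fits held the dispersion at its value in all samples. The fit was tested on simulated data. Exons, introns and sequences came from GENCODE M21 and the GRCm38 genome.

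Named were the 8 clusters of at least 3 CpGs within promoters or bodies and the 5 promoters and bodies of lowest p in each direction, the promoter of lowest p of each list in each direction and the fixed genes. The comparison, members and gene lists were chosen with earlier results of these data known. Alternatives were the other tests, other sets of samples, sex as a covariate, a minimum of 20 calls and clusters of gaps up to 50 or 200 bp.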

Additional observations from a re-analysis of the deposited data

Results flagged for a closer look

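Of 69 groups of 5 or 6 values looked at, 11 had a sample far from the others by Dixon's test. The rate of about 1 of 20 groups by chance holds for normally distributed values and is no yardstick here. Where all other samples are at 0% or 100%, any single differing value is flagged, and many of the features were chosen by p. At rest these were sample 12 at the Jun cluster (0.141%, the others at 0%) and sample 24 at the Kcna6 promoter (0.0685%). At 60 min, sample 17 had 9.55% of its calls at the pair of deepest CpGs, against 5.89% in the nearest sample. At the named clusters, sample 19 was high at St5 (3.65%) and Nradd (2.04%), sample 3 at Cactin (2.71%) and Kcnn1 (0.157%), sample 10 at Ywhaq (0.195%) and Timmdc1 (1.26%), and sample 23 at Adgrb3 (0.198%). In the Scnn1b body, sample 10 was at 96.1% and the other 60 min samples at 100%.

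The change with exercise in KO females minus that in KO males differed in 7 measures by an exact permutation test of time within each sex, each with an adjusted p of 0.055: -1.61 points over CpGs (p = 0.04), -0.748 in CpG islands (0.03), -3.37 in shores (0.045), -3.65 in open sea (0.03), -0.296 in promoters (0.045), -3.05 in introns (0.035) and -2.98 in intergenic sequence (0.02). The 7 measures come from the same libraries and overlap in their CpGs, and WT mice gave exact permutation p-values of 0.23 to 0.43 for them.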

How the results depend on the processing

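Of the results that answer a comparison, 174 values kept their direction and side of the threshold under the alternatives and 5 moved, all counts of calls that were 0 in the edgeR quasi-likelihood test. The likelihood ratio test of edgeR called 1 gene body (Scnn1b, log2 odds ratio 4.47) and, for the difference between the genotypes' changes, 2 clusters. limma called 1 CpG on percent for KO, and 1 cluster each on log2 ratios and on percent for the difference of changes. The cause was not tested. No paired analysis was possible because the groups share no sample numbers. Of the counts at an unadjusted p under 0.05 in KO, the likelihood ratio test gave 2573 clusters, a minimum of 20 calls 948 of 28165, gaps of at most 50 bp 2411 of 73938 and limma on percent 10442 CpGs, against 1532 clusters and 6094 CpGs. For the difference of changes the likelihood ratio test gave 2838 clusters against 1716. Leaving out each replicate in turn gave 0 calls for clusters, promoters and bodies, with 1350 to 1810 clusters, 303 to 373 promoters and 433 to 692 bodies at an unadjusted p under 0.05 by edgeR, a pooled difference of -5.49 to -2.45 points and a difference over CpGs of -0.800 to -0.393 points. For single CpGs, limma on log2 ratios gave 7953 at an unadjusted p under 0.05. Leaving out samples 6 and 23, the centred fits and the fits on percent were chosen after seeing the data. The precision differed with level: the median width of the 95% interval (limma on percent) was 3.27 points for clusters under 5% at 10 and 30 min and 37.5 points for those at 20 to 50%.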
